A study of Erythranthe guttata with 80 samples.

Results

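Leaves of the inland annual line LMC-17 of Mimulus guttatus, the common yellow monkeyflower, were compared between the 4leaf stage, the second pair of true leaves, and the 2leaf stage, the first pair. The 20 libraries were taken by the ecotype and tissue labels, 10 Inland 4leaf and 10 Inland 2leaf plants, out of 80 libraries in the series. Each library is the leaf RNA of a different plant, untreated and grown in the same chamber conditions as all others, and the plants of both stages belong to this 1 inbred line. The other libraries hold Inland floral buds and the coastal perennial line SWB-4 at 5 stages, which serve here only for reference. Stages were assigned to plants at random, leaves were harvested near full expansion within a fixed afternoon window, and plants were spread over 4 library pools. Leaf position, plant age and day of harvest change together between the stages and cannot be told apart, and the age in days is not given in the labels. The assay was 3′-Tag-Seq, which reads each transcript at its 3′ end, so a level is given as CPM, the count of a gene relative to the total of its library, scaled by trimmed means (TMM) over the 20 libraries.

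As background, inland annual monkeyflowers flower early and soon after their first leaf pairs, whereas coastal perennials first build many vegetative leaves. Jasmonates are oxygenated lipids that turn on defence and slow growth. JAZ proteins repress the MYC transcription factors of this pathway until the receptor COI1 removes them. Gibberellins and brassinosteroids promote growth, and the last steps of gibberellin synthesis are set by the GA20ox and GA3ox oxidases.

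The libraries held 2693066 to 4481940 counts at 2leaf and 2209701 to 5673383 at 4leaf, and in each stage between 17733 and 18980 genes had a count. No library was a copy of another among the 190 pairs. The leaf markers were the photosystem II protein PPL1, the chloroplast RNA-binding protein CSP41A and the peroxidase APX4. They stood at 205 CPM or more in every plant, but their level in buds is not given here. They alone therefore do not tell leaf from bud. The 23 genes that mark coastal floral buds summed to 1.49 to 5.53 CPM over the 20 libraries, against at least 201 CPM in Inland buds. Only 2 genes could serve as markers of the coastal line, and they summed to at most 11.5 CPM here against at least 30.2 CPM in coastal leaves of either stage. The bud and coastal levels here are CPM scaled over the 80 libraries. The 4leaf plants 4, 5, 7 and 10 stood apart from the other 4leaf plants. They had the highest TMM factors, 1.4, 1.15, 1.27 and 1.14 against at most 1.07 in any other library. Plants 4, 7 and 10 were the 3 shallowest 4leaf libraries and all sat in pool 3, while plant 5 sat in pool 2. These plants return below, and the main counts are also given without them. They were picked after seeing the data, so counts without them only describe their share.

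The first question was how many genes differed between the stages, and in how many plants. Of 12809 genes tested with edgeR's quasi-likelihood test and pool as a term, 2743 (21.4%) passed a Benjamini-Hochberg adjusted p of 0.05, 1377 (10.8%) higher and 1366 (10.7%) lower at 4leaf. Of these, 479 (3.74%) changed by a log2 fold change of at least 1, that is by at least 2-fold. Over all genes tested the median log2 fold change was 0.02. With libraries scaled by their total alone the median moved to 0.21, and 2927 genes were called higher and 552 lower, so the balance of rises and falls depends on the scaling. Within pools 1 to 4 alone, with 2 or 3 plants a stage, 286, 18, 627 and 197 genes were called. Of the genes called over all pools, 97, 47, 45 and 20 had the opposite sign within these pools.

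The called genes ranged from changes carried by a few plants to changes seen in all of them. Most called genes overlapped between the stages: 5 4leaf plants beyond every 2leaf plant was the commonest number, with 204 genes called higher and 195 called lower. In 129 genes (1.01% of those tested) all 10 4leaf plants lay above all 10 2leaf plants, and in 72 genes (0.562%) all lay below. These 201 genes are called shifted in every plant below, and their members were set by this non-overlap, so their fold changes describe them and are not further evidence. Their median log2 fold change was 1.60 for the rises and -1.18 for the falls. A change of at least 2-fold was found in 103 of the 129 and in 42 of the 72. Without plants 4, 5, 7 and 10 there were 425 such genes, and 199 of them were among the 201. The rule is easier to meet with fewer plants, and leaving out any 1 library gave 208 to 277 such genes. The 425 is therefore no measure of these 4 plants alone. Among genes called with 9 plants beyond every 2leaf plant were 132 rises and 79 falls, just outside the limit.

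**Figure D1:**
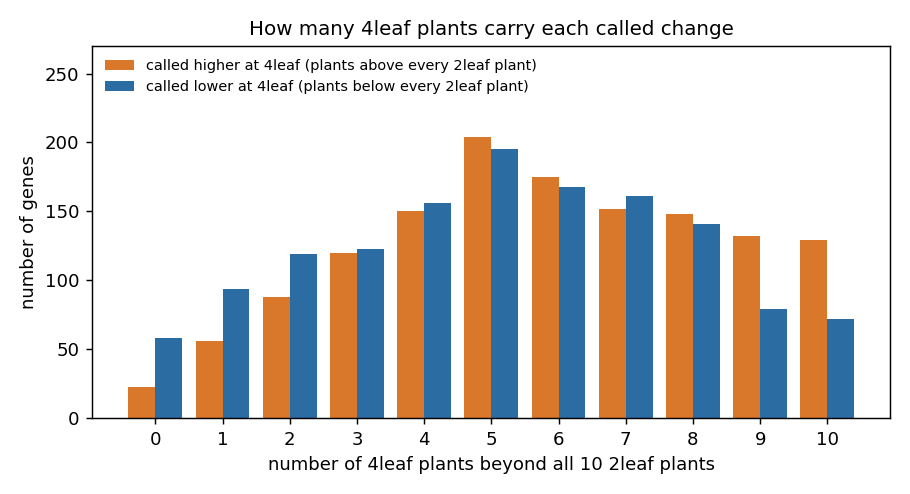
Bars give the number of called genes (vertical axis) by how many of the 10 4leaf plants lay above (called higher) or below (called lower) all 10 2leaf plants (horizontal axis). The counts peak at 5 plants (204 and 195 genes), and 129 and 72 genes reach all 10 plants.

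Among the rises in every plant, Migut.E00037 and Migut.M01914 had the largest fold changes. The sources used here pair few identifiers with gene names, so the leading genes are given by identifier and no function is stated. Migut.E00037 stood at 0, 0.325 and 1.62 CPM (lowest, median and highest plant) at 2leaf and at 6.9, 23.7 and 43 CPM at 4leaf. Its log2 fold change was 5.80 ± 0.42 (SE, n = 10 and 10, edgeR adjusted p = 9.4e-09). Migut.M01914 went from 0.698, 3.95 and 25.4 CPM to 125, 311 and 517 CPM, a log2 fold change of 5.23 ± 0.41 (SE, edgeR adjusted p = 2.0e-08). The lowest 4leaf plant of either gene was more than 4-fold above the highest 2leaf plant. On CPM scaled over the 80 libraries, Migut.M01914 had a median of 536 in Inland buds and at most 3.5 in any coastal 4leaf plant, and Migut.E00037 79 and 0.874. Both genes were thus high in the buds of this line and low in coastal leaves of the same stage.

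The next rises by size were smaller. Migut.A00165 rose from 3.92, 6.18 and 10.5 to 31.4, 101 and 180.1 CPM, by 3.96 ± 0.24 on the log2 scale. Migut.A00500 rose from 26.5, 39 and 49.5 to 199, 383 and 493 CPM, by 3.24 ± 0.17. Migut.L01899, between these 2 genes by fold change and the lowest of the 3 in level, had a median of 0.847 CPM at 2leaf and 10.7 CPM at 4leaf, a log2 fold change of 3.36 ± 0.45. The adjusted p of these genes ran from 8.4e-11 to 1.6e-05 (edgeR). In A00165 and A00500 the lowest 4leaf plant was plant 4, with 31.4 and 199 CPM.

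The most abundant rises were Migut.F00938, Migut.G00116 and Migut.I00685. F00938 had 2leaf plants between 122 and 270.3 CPM and 4leaf plants between 345 and 908 CPM (log2 fold change 1.77 ± 0.15). G00116 ran from 69.5 to 267 at 2leaf and from 355 to 806 CPM at 4leaf (2.14 ± 0.17). I00685 ran from 58.8 to 171 and from 276 to 662 CPM (1.96 ± 0.19). In F00938 and G00116 the lowest 4leaf plant was plant 5, and in I00685 it was plant 4.

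The largest falls in every plant were of genes that the first leaf pair expressed clearly. Migut.M00634 stood at 151, 223 and 397 CPM at 2leaf and at 16.8, 31.6 and 70.1 CPM at 4leaf, a log2 fold change of -2.75 ± 0.22. Migut.N01499 went from 28.8, 42.4 and 61.3 to 0.994, 5.27 and 15.1 CPM (-2.81 ± 0.27). Migut.O00487 had the largest fall, -3.28 ± 0.32, from a median of 36.7 to 3.57 CPM. On the scale of the 80 libraries the median Inland bud held 0.477 CPM of M00634 and 0.46 CPM of N01499 but 176 CPM of O00487. The lower level of the second leaf pair thus went with near absence from buds for M00634 and N01499, and with a higher level in buds than in either leaf pair for O00487.

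Migut.N00513 and Migut.M01082 were the other 2 of the 5 largest falls, with log2 fold changes of -2.77 ± 0.24 and -2.68 ± 0.27 from medians near 10 CPM (Migut.N00513 10.3, Migut.M01082 10.5). The falls of the most abundant genes were much smaller. Migut.O00192 fell from 667 to 905 CPM at 2leaf to 415 to 653 CPM at 4leaf, by 0.55 ± 0.10 on the log2 scale. Migut.A01049 fell by 0.90 ± 0.11 and Migut.N01242 by 0.80 ± 0.13 on that scale. The adjusted p of the 8 falls named here ran from 3.2e-08 to 3.2e-04 (edgeR).

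**Figure D2:**
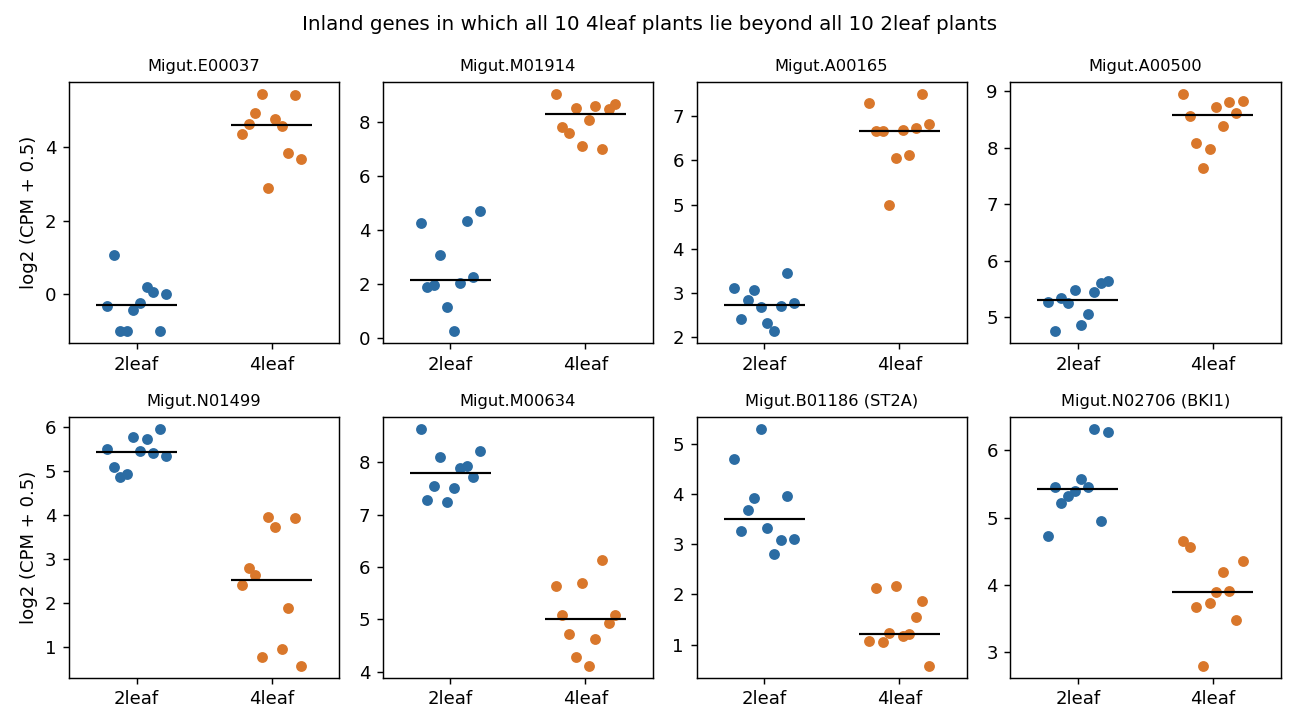
Each point is 1 plant, with the log2 of its CPM plus 0.5 on the vertical axis and the stage on the horizontal axis, and horizontal lines are medians. In each of the 8 genes, 4 of the largest rises, 2 of the largest falls and the hormone genes ST2A and BKI1, no 4leaf plant reaches the range of the 2leaf plants.

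The coastal line was compared between the same stages in 20 other libraries, which the choice of the 201 genes did not use. There 2113 of 13262 genes tested (15.9%) were called between 4leaf and 2leaf, 1024 (7.72%) higher and 1089 (8.21%) lower. Of the 129 rises, 104 could be tested in the coastal line, and 17 were called higher and 5 lower, where 7.37% and 8.6% of the 11968 genes tested in both lines were called in these directions. Their median coastal log2 fold change was 0.10, against 0.01 over all genes tested in both lines. Of the 72 falls, 66 could be tested there, and 3 were called higher and 29 lower, with a median of -0.28. Of all genes tested there, 40 (0.302%) lay higher and 54 (0.407%) lower at 4leaf in every coastal plant, and only 1 of the rises and 3 of the falls were among them.

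The difference between the lines was tested in a fit of 40 libraries with an interaction of line and stage, in which 1447 of 14422 genes (10%) were called. Without Inland 4leaf plants 4, 5, 7 and 10, 1616 genes were called, and 1064 of them were among the 1447. Of the 201 genes, 106 rises and 46 falls were called by the interaction, which uses the inland libraries that chose them and so describes them only. Among the 201 genes, the 3 largest interactions were of rises. They were Migut.E00037 (-5.92, coastal minus inland log2 change, edgeR adjusted p = 3.6e-05), Migut.N01545 (-5.37, p = 2.9e-06) and Migut.M01914 (-5.33, p = 6.9e-06). Migut.N01545 stood at 1.08 CPM in the median 2leaf plant and at 10.3 CPM in the median 4leaf plant, and at 0.219 CPM or less in coastal 4leaf plants. The filter on low counts left Migut.E00037 out of the coastal test between stages. Both genes had very few counts in coastal 4leaf leaves, so the sizes of their interactions are imprecise. For Migut.A00500, the inland rise brought the median from 49.5 to 472 CPM on the scale of the 80 libraries, while coastal leaves held 229 CPM at 2leaf and 190.5 at 4leaf. The coastal leaves thus lay between the inland stages for this gene.

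**Figure D3:**
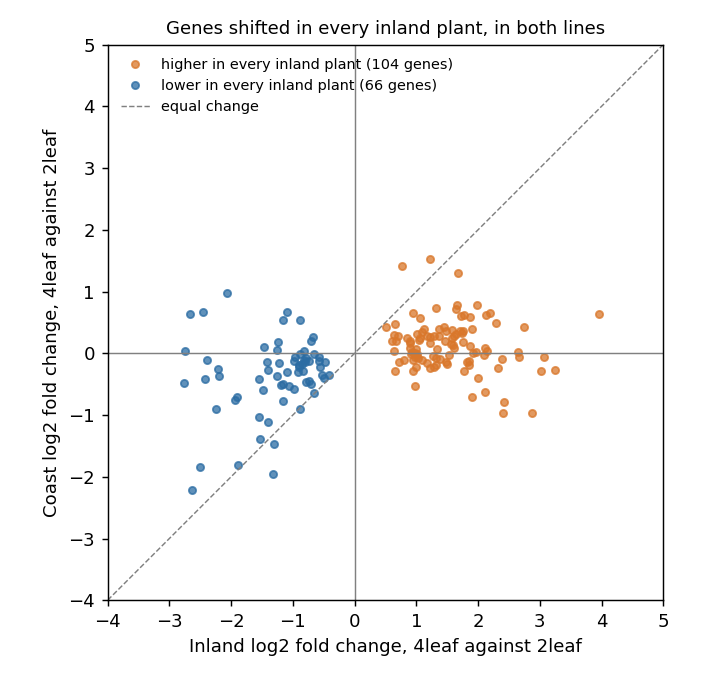
Each point is 1 of the 170 genes shifted in every inland plant that could be tested in both lines, with its 4leaf against 2leaf log2 fold change in the inland line on the horizontal axis and in the coastal line on the vertical axis. The dashed line marks equal change, and the coastal medians are 0.10 for the rises and -0.28 for the falls.

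Named genes were described through 14 lists of 89 genes, many of which the study chose on these libraries, so that their counts only describe them. Of the 89, 70 could be tested, and 6 rose, 17 fell and 47 did not pass the test, beside 21.4% called among all genes. Without plants 4, 5, 7 and 10, 3 rose and 14 fell. With libraries scaled by their total alone, 15 rose and 10 fell, so the balance over the lists turned with the scaling. The strongest changes were in jasmonate, gibberellin and brassinosteroid genes. Of 3 jasmonate synthesis genes tested 1 rose and 1 fell, of 7 turnover genes 1 fell, and of 9 signalling genes 1 rose and 2 fell.

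ST2A (Migut.B01186), in Arabidopsis a sulfotransferase that inactivates hydroxylated jasmonate, fell in every plant. It stood at 6.53, 10.9 and 38.6 CPM at 2leaf and at 0.994, 1.83 and 3.97 CPM at 4leaf (log2 fold change -2.66 ± 0.28, edgeR adjusted p = 8.7e-07). In the coastal line its change was 0.64 ± 0.23 (adjusted p = 0.06), and the interaction was called at 3.33 (p = 1.3e-07). The repressor JAZ6 (Migut.D00926) fell from 41.5, 60.3 and 87 to 10.3, 20.6 and 42 CPM, by 1.48 ± 0.19 on the log2 scale (p = 1.3e-05). In JAZ6, 9 of the 10 4leaf plants lay below all 2leaf plants and the stages just overlapped. JAZ3 (Migut.D02043) fell by 0.78 ± 0.15 on that scale (p = 6.6e-04), with 7 plants below. JAZ8 (Migut.M00900) changed by -0.50 ± 0.26, which did not pass the test (p = 0.18).

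The receptor subunit gene COI1 at Migut.F00706 rose by 0.54 ± 0.14 on the log2 scale, from a median of 8.84 to 12 CPM, and 7 of 10 4leaf plants lay above all 2leaf plants (edgeR adjusted p = 0.0087). Its other copy, Migut.F01428, did not pass the test (0.29 ± 0.15), but did with libraries scaled by their total alone (edgeR adjusted p = 0.039). Neither MYC2 gene, transcription factors downstream of the JAZ repressors, was called, with log2 fold changes of 0.07 ± 0.13 (Migut.B01912) and -0.22 ± 0.15 (Migut.E00934). In the synthesis steps, allene oxide synthase AOS (Migut.J00934) fell by 0.53 ± 0.18 on the log2 scale (p = 0.043) and the oxophytodienoate reductase OPR1 at Migut.B00744 rose by 0.70 ± 0.22 (p = 0.023). Both were near the threshold, and without plants 4, 5, 7 and 10 neither passed it (p = 0.17 and 0.094). The OPR1 genes lie close together by their numbers, and near-identical copies could share reads.

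GA3ox1 (Migut.I00834), which makes bioactive gibberellin, fell from 4.31, 7.96 and 12.6 CPM to 0, 0.937 and 4.52 CPM. Its log2 fold change of -2.88 ± 0.35 (edgeR adjusted p = 4.9e-06) was the largest of any listed gene, and only 4leaf plant 2, at 4.52 CPM, reached the 2leaf range. In the coastal line it also fell, by 0.57 ± 0.15 on the log2 scale (p = 0.011), from a far higher level, a median of 62.3 CPM against 10 at Inland 2leaf on the scale of the 80 libraries. GA20ox1, which acts one step earlier, the inactivating enzyme gene GA2ox8, the receptor gene GID1B and the growth repressor gene DELLA did not pass the test. With libraries scaled by their total alone, GA20ox1 was called higher (edgeR adjusted p = 0.048). Of the light-regulated transcription factors PIF1, the copy Migut.D00504 rose by 0.69 ± 0.19 (p = 0.014) and Migut.M00105 changed by 0.14 ± 0.16 (p = 0.59).

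BKI1 (Migut.N02706), an inhibitor of the brassinosteroid receptor BRI1, was the other listed gene shifted in every plant. Its 2leaf plants held 26.1, 42.5 and 79.3 CPM and its 4leaf plants 6.46, 14.4 and 24.6 CPM, a log2 fold change of -1.47 ± 0.20 (edgeR adjusted p = 2.5e-05). In the coastal line it changed by 0.10 ± 0.25, and the interaction was called (p = 0.001). Of the auxin genes tested, 2 of 6 rose, the repressor gene SHY2 (Migut.N02182) by 0.65 ± 0.18 and the auxin-responsive gene Migut.F01336 by 0.83 ± 0.23 (p = 0.012 and 0.013). The cytokinin response regulator ARR12 rose by 0.41 ± 0.14 (p = 0.041) and was not called without plants 4, 5, 7 and 10 (p = 0.62), nor was SHY2 (p = 0.079). The sodium exporter gene SOS1 and the kinase gene CIPK8 had log2 fold changes of 0.13 ± 0.19 and 0.08 ± 0.09 and were not called. None of the 9 genes tested in the lists for vesicles and lipids, cell walls, cell death and stress, and defence was called by edgeR, voom or DESeq2, and none had an unadjusted p under 0.05. With libraries scaled by their total alone, the 3 vesicle and lipid genes were called higher (edgeR adjusted p = 0.041, 0.030 and 0.029).

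All 7 photosynthesis and chloroplast genes were called lower at 4leaf, with log2 fold changes between -0.54 (CSP41A) and -0.36 (APX4) and adjusted p between 0.0051 and 0.03 (edgeR). Over all genes tested, 10.7% were called lower. The list includes the chloroplast ribosomal genes RPL9, RPL4 and S5, the chaperone DnaJ/Hsp40 and the photosystem II gene PPL1. The change was not shared evenly by the 4leaf plants. Summed over the 7 genes, plants 4, 5, 7 and 10 held 2608, 2981, 2668 and 2934 CPM. The other 6 4leaf plants held 4006 to 4994 CPM, beside 4155 to 5667 CPM in 2leaf plants. A high TMM factor lowers the CPM of a library, and plants 4, 5, 7 and 10 had the highest factors. The gap between these plants and the others therefore depends on the scaling. In a fit without plants 4, 5, 7 and 10, 1077 of 13257 genes tested were called lower. Of the 7 genes, 0 were called by edgeR and 1 had an unadjusted p under 0.05. Their log2 fold changes lay between -0.21 and -0.07, and the smallest adjusted p was 0.16. These plants were the 4 lowest 4leaf plants for this list and were picked after seeing the data. Leaving them out weakens a fall by construction, so this fit only describes their share in it. Within pool 3, where plants 4, 7 and 10 were, all 7 were called lower, by 0.75 to 1.08 on the log2 scale. Of all genes tested in pool 3, 417 of 12641 were called lower. Within pools 1, 2 and 4, of 4 or 5 libraries, 0 were called by edgeR, 0, 0 and 2 had an unadjusted p under 0.05, and all 7 log2 fold changes were negative in each. Of all genes tested in these pools, 81 of 13382, 10 of 13542 and 61 of 13500 were called lower. With libraries scaled by their total alone, 5 of the 7 were called lower, beside 552 of the 12809 genes tested.

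The count for ribosome and protein production genes moved the other way between these fits. Of 9 tested, 4 fell, the ribosomal protein genes S19, L14p/L23e and L1p/L10e and a peptidyl-prolyl isomerase that aids protein folding, by 0.30 to 0.53 on the log2 scale. Over all genes tested, 10.7% were called lower. Without plants 4, 5, 7 and 10, 7 of the 9 were called lower, beside 1077 of 13257 genes tested. With libraries scaled by their total alone, 0 were called by edgeR, 0 had an unadjusted p under 0.05 and the sign of L38e turned (-0.20 against 0.01). The list also holds 1 cyclin gene, which was not called.

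The second question was which genes were high in a few 4leaf plants only. A gene was counted when 1 to 4 4leaf plants lay above all 10 2leaf plants, at least 1 of them by 4-fold on the log2 CPM scale with 20 counts or more, and the median 4leaf plant did not. This held for 53 of the 12809 genes tested (0.414%) and for 271 of the 22593 genes with a count (1.2%), 218 of which the filter on low counts had left out of the test. With the stages exchanged, the same rule found 0 genes in both sets. In the coastal line it found 7 of 13262 genes tested (0.0528%), and 3 of these were among the 53. Without plant 5 the inland count was 22, and without plants 4, 5, 7 and 10 it was 0. Of the 53, 11 were among the genes called higher. The rule used these libraries, so the members are described and not tested.

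The same few plants carried nearly all of these genes. Among the 53, plant 5 was the highest plant for 35, plant 4 for 14 and plant 10 for 4. Among the 271, plant 4 was highest for 134, plant 5 for 119, plant 10 for 17 and plant 3 for 1. Plant 7 was highest for none, but it lay above every 2leaf plant in 215 of the 271. The genes fell into sets with different companions. Of the 134 genes highest in plant 4, plant 7 also lay above every 2leaf plant in all 134, plant 5 in 3 and plant 10 in 5. Of the 119 genes highest in plant 5, plant 10 did so in 87, plant 7 in 63 and plant 4 in 2. Plants 4 and 5 thus stood at the head of largely separate gene sets, and plant 7 took part in both. By their identifiers, 39 of the 271 (14.4%) lay within 3 numbers of another, against 5.71% of all genes with a count lying that near to one of the 271. Of the 53 tested genes, 0 lay that near to another, against 1.32% of all genes tested.

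**Figure D4:**
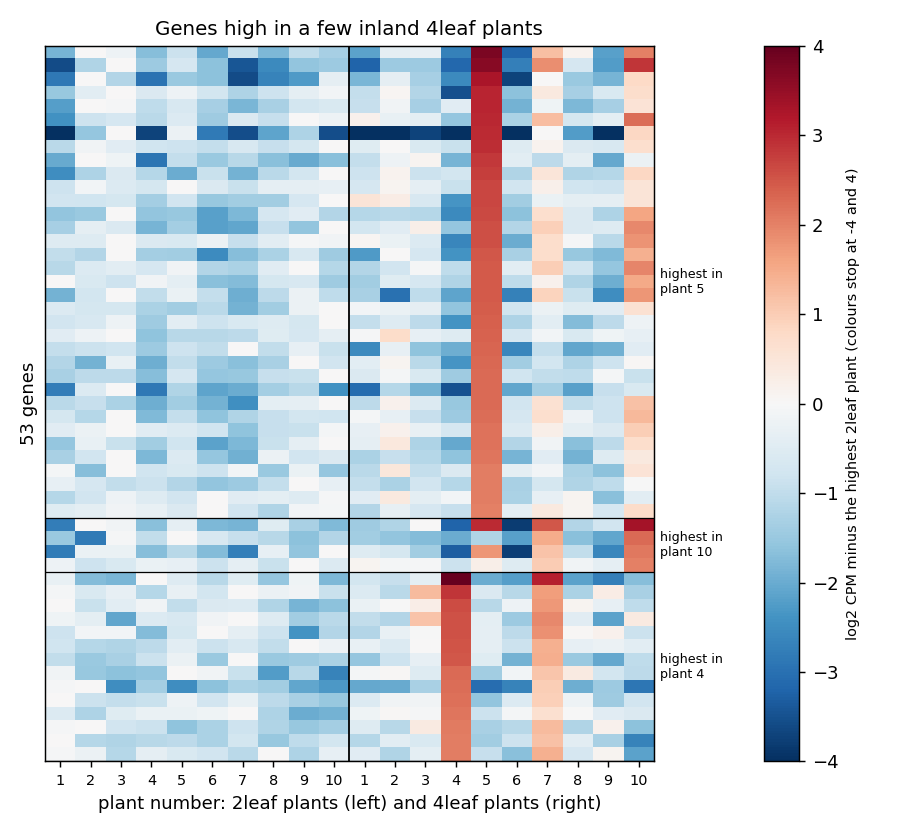
Rows are the 53 tested genes high in a few 4leaf plants, grouped by the plant in which they were highest, and columns are the 10 2leaf and 10 4leaf plants. Colour gives the log2 CPM minus that of the highest 2leaf plant, and red cells above 0 in 4leaf plants number 122 in plants 4, 5, 7 and 10 together and 37 in the other 6, with 35 genes highest in plant 5, 4 in plant 10 and 14 in plant 4.

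Among the 53 tested genes, the 6 with the largest gap between the highest 4leaf and the highest 2leaf plant show both patterns. Migut.G00115 stood at 1199, 703 and 349 CPM in plants 5, 10 and 7, at 9.8 to 59.9 CPM in the other 4leaf plants and at 95.6 CPM or less at 2leaf. Migut.O00272 followed the same order, with 131, 38.4 and 21.8 CPM against at most 9.05 CPM at 2leaf. Migut.O00496 was highest in plant 10, with 80.5, 62.7 and 43.9 CPM in plants 10, 5 and 7. In these 3 genes plant 4 was among the lowest, at 10.5, 0.922 and 0.307 CPM.

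Migut.J00088 and Migut.C00493 were led more strongly by plant 5 alone, with 101 and 112 CPM there and 17.9 and 21.9 CPM in plant 10. Migut.G00285 had the largest gap of all tested genes and the other pattern, 133 CPM in plant 4 and 62.4 CPM in plant 7, against at most 4.95 CPM in the other 4leaf plants and 6.69 CPM at 2leaf. Of the 6 genes, G00115 and O00496 passed the test between stages (edgeR adjusted p = 0.046 and 0.043). Neither passed it without plants 4, 5, 7 and 10, and their log2 fold changes went from 2.20 and 2.23 to 0.0034 and -0.14.

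The largest gaps over all genes with a count were of genes that the filter had left out of the test, and those given here were chosen after their values were seen. A gap above that of G00285 was found in 53 of the 271, of which 46 were highest in plant 4, 5 in plant 5 and 2 in plant 10. Migut.C01391 stood at 3720.1 CPM in plant 4 and 1903 CPM in plant 7, at 1.33 CPM in plant 10 and at 0 in the other 7 4leaf plants. At 2leaf it had counts only in plants 4 and 6, at 1.18 and 0.698 CPM, which like 4leaf plants 4, 7 and 10 were in pool 3. Migut.D02017 stood at 1065 and 512 CPM in plants 4 and 7 and Migut.F00365 at 800.1 and 423 CPM, and neither exceeded 0.788 CPM in any other of the 20 libraries.

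The other 3 of these 6 genes kept the order of plants 4 and 7. Migut.G00535 stood at 931 and 415 CPM and, unlike the others, was detected in all 20 libraries, at 2.3 CPM or less in the rest. Migut.K01282 stood at 181 and 85.2 CPM and Migut.F01138 at 222 and 111 CPM. The level in plant 7 was 0.445 to 0.529 of that in plant 4 in the 6 genes. On the scale of the 80 libraries, the highest level of any of the 6 in Inland buds, in coastal leaves of either stage or in coastal buds was 5.14 CPM, that of C01391 in a coastal bud. The 134 genes highest in plant 4 together held 1.52% of all counts in plant 4 and 0.68% in plant 7, and at most 0.0255% in the other 18 libraries. The 119 genes highest in plant 5 held 0.837%, 0.279% and 0.171% in plants 5, 10 and 7, and at most 0.0735% elsewhere. These shares follow from how the genes were chosen and describe how large the 2 sets were.

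Named defence genes followed plants 5, 10 and 7. MLP423 (Migut.N00310), a member of the major latex protein family, stood at 381, 85.2 and 48.2 CPM in these plants, at no more than 9.66 CPM in the other 7 4leaf plants and between 1.5 and 47.8 CPM at 2leaf. Its other listed copy, Migut.N00312, whose reads may be shared with it, stood at 14.8, 21.2 and 11.2 CPM against at most 5.98 CPM at 2leaf. The peroxidase gene Migut.J00066 stood at 269, 60.7 and 30.8 CPM against at most 18.7. The serine protease inhibitor gene Migut.A00978, of a class that blocks digestive enzymes of herbivores, stood at 47, 11.3 and 8.34 CPM, against at most 5.23 CPM at 2leaf, and had 0 counts in 6 of the 10 4leaf plants. An auxin responsive protein gene of the same list, Migut.H01293, stood at 63.6, 38.4 and 21.4 CPM, the last of these just under the highest 2leaf plant (22 CPM).

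These genes were not fully silent elsewhere. At 2leaf, MLP423 reached 47.8 CPM in plant 3 and 40.6 CPM in plant 5, and the peroxidase 18.7 and 13.1 CPM in the same plants, while 2leaf plant 1 held 1.5 and 0.9 CPM. In the coastal line MLP423 reached at most 0.494 CPM and the peroxidase 1.23 CPM in any 4leaf plant, on the scale of the 80 libraries. The transmembrane protein gene MLO, also in the list, did not follow the pattern, with 41, 75.9 and 56.6 CPM in plants 5, 10 and 7 against a 2leaf median of 66. The study chose this list on these libraries. The 3 defence genes tested, MLP423, H01293 and MLO, were not called between the stages (edgeR adjusted p = 0.54, 0.35 and 0.32).

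Named cell division genes followed plants 4 and 7. Histone H2A6 (Migut.D02117) stood at 267 and 131 CPM in these plants and between 22.5 and 70.1 CPM in the other 4leaf plants. At 2leaf it ran from 34 to 132 CPM, so plant 4 exceeded all 2leaf plants and plant 7 did not. The spindle assembly gene TPX2 (Migut.M00163) stood at 24.3 and 10.2 CPM, against 2.61 to 9.69 CPM at 2leaf. The cyclin-dependent kinase gene Migut.C00348 stood at 38.4 and 21.8 CPM, against at most 13.8 CPM at 2leaf, and the DNA methyltransferase gene CMT3 (Migut.D02536) at 15.4 and 9.07 CPM, against at most 9.05. None of the 6 genes reached the 4-fold gap over the 2leaf plants that the rule asks for.

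Summed over the 6 cell division genes, plants 4 and 7 held 419 and 204 CPM and the other 4leaf plants 35.5 to 119 CPM, beside 52.8 to 228 CPM at 2leaf, where plants 2 and 1 were highest. The test found no difference between the stages in these genes, with 0 of 6 called by edgeR, voom or DESeq2, 0 at an unadjusted p under 0.05, and log2 fold changes between -0.09 and 0.31. Without plant 4 all 6 log2 fold changes were negative, from -0.41 to -0.08, and without plants 4, 5, 7 and 10 they ran from -0.66 to -0.23, with 0 called by edgeR and 1 at an unadjusted p under 0.05. In the coastal line 4 of the 6 were called higher at 4leaf, where 7.72% of all genes tested were, among them H2A6 (0.86 ± 0.24, adjusted p = 0.017). The interaction was called for 0 of the 6, and 0 had an unadjusted interaction p under 0.05 (edgeR), so a difference between the lines was not shown. On the scale of the 80 libraries the 10 coastal 4leaf plants held 92.2 to 329 CPM of H2A6, a range that plant 4, at 319 CPM on that scale, lay near the top of.

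**Figure D5:**
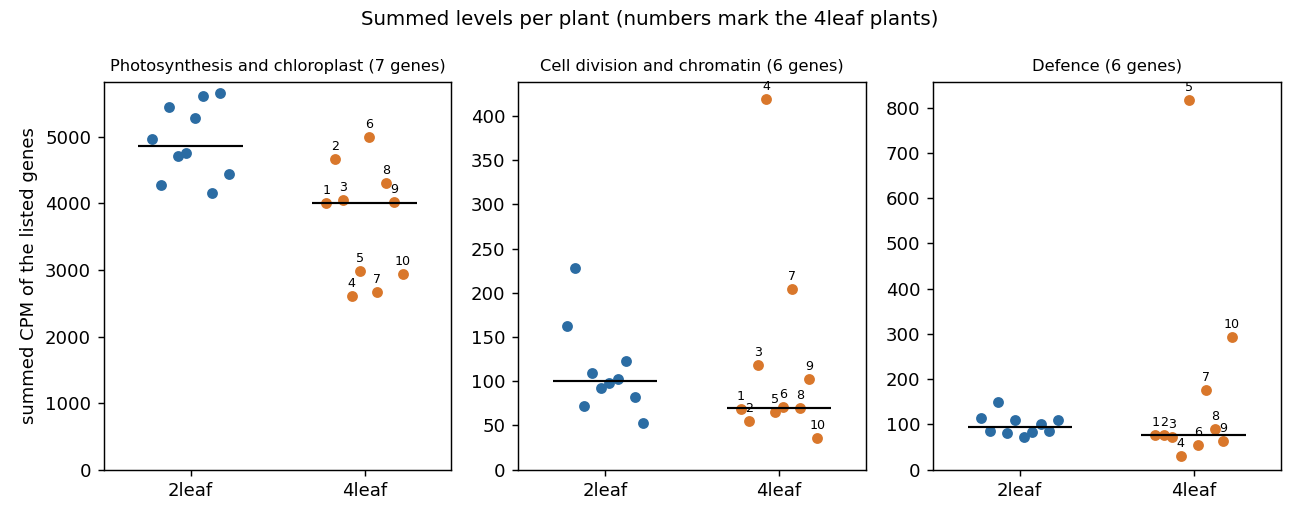
Each point is 1 plant, with the summed CPM of a gene list on the vertical axis and the stage on the horizontal axis, horizontal lines are medians and numbers mark the 4leaf plants. On TMM-scaled CPM, plants 4, 5, 7 and 10 are the lowest 4leaf plants for photosynthesis and chloroplast genes. Plants 4 and 7 are the highest for cell division genes, and plants 5, 10 and 7 for defence genes.

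On TMM-scaled CPM, the low photosynthesis sums of plants 4, 5, 7 and 10 therefore went with other patterns. Among the 4leaf plants, the summed division genes were highest in plants 4 and 7, and the summed defence genes in plants 5, 10 and 7. The division sum of plant 7 lay within the range of the 2leaf plants. In plant 4 the 23 bud genes summed to 5.53 CPM, which is the highest of the 20 libraries and far below the level of buds. Whole leaves were sampled, so a change in the share of a cell type and a change of RNA within cells cannot be told apart. The part of library depth in these patterns was not tested. The 2leaf plants 3, 4 and 6, in the same pool 3 as plants 4, 7 and 10, held 71.7, 109.9 and 98.4 CPM of the division genes. Plant 5 was in pool 2. The part of library pool in these patterns was not tested either.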

How the data were processed

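The deposited values are whole read counts per gene, not normalised, of 80 3′-Tag-Seq libraries. The authors checked read quality with FastQC and removed adapters with Cutadapt. Alignment used BWA-MEM and version 2.0 of the M. guttatus genome, SAMtools kept high-quality primary alignments, and HTSeq 0.6.1 made counts per gene by strand. Reads that fit more than 1 copy can be dropped or shared, which leaves the levels of near-identical copies uncertain. The table held 28140 genes, 6 label lines that name no gene and 0 count columns without a sample. Of the genes, 5547 had a total of 0 in the 20 libraries. Groups, plant numbers and pools came from the sample labels.

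In R 4.3.3, edgeR 4.0.16 was run on the 20 libraries with filterByExpr on stage (minimum count 10, minimum total 15), TMM scaling and stage plus pool in a quasi-likelihood F test. P-values were adjusted by the Benjamini-Hochberg method over all 12809 genes tested, with a threshold of 0.05. Standard errors are the log2 fold change divided by the square root of F. Log2 CPM used a prior count of 2. The coastal fit was built in the same way, and the interaction was fitted to 40 libraries. Totals of 2209701 to 5673383 counts limit precision for genes of a few CPM. The scripts were tested on simulated data.

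Named were, in addition to the listed genes, the 5 largest changes and the 3 most abundant genes in each direction among genes shifted in every plant with a mean of at least 10 CPM in the higher stage, the 6 largest gaps among tested genes high in a few plants, and the 3 largest interactions among genes shifted in every plant. Members, lists and rules were chosen with earlier results of these data known. Gene names came from the study's text, since the reference table used here matched 0 of the identifiers. Each plant gave 1 library, so p-values measure the spread between plants of 1 line.

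Alternatives were voom with limma 3.58.1, DESeq2 1.42.0, other scalings, filters and covariates, 60 libraries in 1 fit, fits within pools and leaving out libraries. Those without 4leaf plants 4, 5, 7 and 10 together, those that consider all genes with a count, and leaving out libraries in turn for genes shifted in every plant, genes high in a few plants and the interaction were added after seeing the data. Plant numbers occur in both stages, but nothing states that equal numbers share a parent, day or tray.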

Additional observations from a re-analysis of the deposited data

Results flagged for a closer look

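Dixon's ratio, the gap between an extreme plant and its nearest neighbour divided by the range of its group, was computed for 58 genes in both stages and passed the critical value for groups of 10 in 22 of 116 groups. Chance alone passes about 1 group in 20, but many of these genes were chosen for a high 4leaf plant, so that rate is no measure for them. At 4leaf, plants 4 and 5 gave 7 such values each. Plant 4 was the highest for Migut.G00285 (0.532), the kinesin or microtubule genes Migut.H01772 (0.601) and Migut.F00327 (0.648), TPX2 Migut.M00163 (0.607), the cyclin-dependent kinase Migut.C00348 (0.484), H2A6 Migut.D02117 (0.558) and the isomerase Migut.B00563 (0.492). Plant 5 was the highest for Migut.M01082 (0.477), Migut.O00272 (0.709), Migut.J00088 (0.826), Migut.C00493 (0.81), MLP423 Migut.N00310 (0.776), the protease inhibitor Migut.A00978 (0.76) and the peroxidase Migut.J00066 (0.775). The other values at 4leaf were those of plant 2, lowest for S19 Migut.G00718 (0.497), and plant 9, highest for ARR12 Migut.K00347 (0.473).

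At 2leaf, an extreme high plant was found for Migut.E00037 (0.596), Migut.G00116 (0.494), Migut.N01545 (0.486), Migut.H01772 (0.58), Migut.H01293 (0.597) and SHY2 Migut.N02182 (0.54). The plants were 2, 1, 4, 2, 3 and 5 in that order.

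The change from 2leaf to 4leaf differed between the lines in 28 named genes by the interaction (coastal minus inland log2 change, edgeR adjusted p under 0.05). Over all genes tested 1447 of 14422 (10%) were called. Many of the 28 were named for large changes or interactions in the same inland libraries, so their count only describes them. More negative in the coastal line were Migut.E00037 (-5.92), Migut.M01914 (-5.33), Migut.A00165 (-3.34), Migut.L01899 (-3.72), Migut.A00500 (-3.51), Migut.F00938 (-1.12), Migut.G00116 (-2.10), Migut.I00685 (-1.94), Migut.O00272 (-4.24), Migut.G00115 (-6.63), Migut.N01545 (-5.37), an AOS gene, Migut.B00287 (-1.62), and an OPR1 gene, Migut.B00747 (-2.17). More positive there were Migut.O00487 (2.82), Migut.N00513 (2.27), Migut.M00634 (2.82), Migut.M01082 (1.50), Migut.N01242 (0.67), Migut.A01049 (0.71) and the isomerase Migut.B00563 (0.64). The hormone genes on this side were AOS Migut.J00934 (1.23), ST2A Migut.B01186 (3.33), JAZ6 Migut.D00926 (2.31), JAZ8 Migut.M00900 (2.73), MYC2 Migut.B01912 (1.71) and Migut.E00934 (1.17), GA3ox1 Migut.I00834 (2.31) and BKI1 Migut.N02706 (1.57). The inland changes of Migut.O00272 (1.80) and Migut.G00115 (2.20) rest on 4leaf plants 5, 10 and 7. Without plants 4, 5, 7 and 10 they were -0.44 and 0.0034. Both interactions are larger in size than these inland changes, so a fall in the coastal line also has a part in them.

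Among genes left out of the test by the filter on low counts, the protease inhibitor Migut.A00978 reached 47 CPM and the peroxidase Migut.J00066 269 CPM in 4leaf plant 5, against at most 5.23 and 18.7 CPM at 2leaf.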

How the results depend on the processing

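Voom with limma, DESeq2, RLE and upper-quartile factors, both other filters on low counts and the fit of 60 libraries gave 2669 to 3399 called genes, within 1.5 times the 2743 of edgeR, and turned the sign of no called gene. Without the pool term 2049 were called. With libraries scaled by their total alone, 2927 genes were called higher and 552 lower (84.1% higher, against 50.2%), and genes shifted in every plant numbered 249 rises and 33 falls. A log2 fold change of at least 1 left 479 genes, 318 higher and 161 lower. Within pools 1 to 4, 286 (205 higher, 81 lower), 18 (8 and 10), 627 (210 and 417) and 197 (136 and 61) genes were called, with 4 to 6 libraries each. Leaving out each library in turn gave 2385 to 3015 called genes (1213 to 1575 higher, 1147 to 1457 lower), 208 to 277 shifted in every plant (132 to 192 rises, 74 to 95 falls), 22 to 64 high in a few 4leaf plants and 1224 to 1995 called by the interaction. The count of 22 came without 4leaf plant 5, and those of 277 and 1995 without 4leaf plant 4. Without 4leaf plants 4, 5, 7 and 10 together, 425 genes (274 rises, 151 falls) were shifted in every plant. This rule is easier to meet with fewer plants. In that fit 2055 genes were called, and 1560 of these were also called over all plants with the same sign. Genes high in a few 4leaf plants then numbered 0. Allowing 1 overlapping plant in each stage gave 799 genes (464 and 335). The rule for a few plants gave 314 genes at 2-fold, 8 at 8-fold, 16 with 1 to 2 plants and 271 over all genes with a count.

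Whether equal plant numbers pair the samples was not settled. Deviations of equal-numbered plants correlated between -0.29 and 0.19, over 0.1 in 3 of 10 pairs, and 3 of 10 4leaf plants correlated best with their own number. With the plant number as a replicate block in place of pool, 1508 genes were called (790 higher, 718 lower) and 895 by the interaction. The signs of 7 named genes turned in fits within single pools, where the gene was called in that fit or over all plants, and the cause was not tested. In pool 1 these were Migut.G00115 (-1.04), Migut.O00496 (-0.53), Migut.N00310 (-6.07), Migut.H01293 (-5.12) and Migut.J00934 (0.067), in pool 2 Migut.F01336 (-0.080) and in pool 3 Migut.D00504 (-0.015). Migut.O00496 turned to -0.14 without the 4 plants named above.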

Other observations

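Further hormone genes varied between plants in ways that the stage test did not call. JMT (Migut.C00754), whose Arabidopsis counterpart makes methyl jasmonate, had a median of 2.34 CPM at 2leaf and 9.69 CPM at 4leaf (log2 fold change 1.66 ± 0.64, edgeR adjusted p = 0.069). With libraries scaled by their total alone, JMT was called higher (edgeR adjusted p = 0.041). For JMT, 4leaf plants 3, 4, 7, 8 and 10, at 12.6 to 29.3 CPM, lay above all 2leaf plants, which reached 6.84 CPM. The lipoxygenase gene LOX2 (Migut.D00552) and the ethylene response factor gene ERF1 (Migut.O00367) were not called over all plants (-0.54 and -0.60, p = 0.5 and 0.22). In the fit without 4leaf plants 4, 5, 7 and 10, a choice made after seeing the data, they were called lower (-1.86 and -1.40, p = 0.0012 and 0.0024). The sodium transporter gene HKT1 (Migut.L01905), too low to be tested, had a median of 3.28 CPM at 2leaf and 0.74 CPM at 4leaf, and 6 of 10 4leaf plants lay below all 2leaf plants.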
